A study of Mus musculus with 6 samples.

Results

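Eph receptors and B-type ephrins were followed here through 10 mouse genes: the receptor genes Epha2, Epha4, Epha5, Epha7, Ephb1, Ephb2 and Ephb3 and the ligand genes Efnb1, Efnb2 and Efnb3. They were chosen by gene name, and all 10 were found among 27694 genes of a deposited isoform table. RNA had been sequenced from 6 untreated mouse (C57/Bl6) neural stem cell cultures, grown undifferentiated in serum-free medium with B27, FGF-2 and EGF. The labels name 3 of them wild type (WT) and the other 3 vimentin knockout (KO). The age, sex and source of the animals, the knockout allele and whether replicates came from separate animals were not given, so p-values measure only the spread among the samples, and that spread may be technical.

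Eph receptors are the largest family of receptor tyrosine kinases, and their ligands, the ephrins, are tethered to the surface of the neighbouring cell. EphA receptors mostly bind A-type ephrins, which are held by a lipid anchor, and EphB receptors mostly bind B-type ephrins, which span the membrane and signal back into their own cell. In the nervous system the pairs steer axons, set borders between cell groups and help regulate division and migration of neural stem cells.

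Levels are given as FPKM, fragments scaled to transcript length and to the size of the library, which allows genes of different length to be compared. Depth, estimated from the ratio of coverage to FPKM and the labelled read length of 150 bases, was 28.4 to 36.2 M reads per library. The RNA of Vim, the gene that the knockout was meant to remove, was higher and not lower in the libraries labelled KO. It was at 191, 179 and 186 FPKM in WT-labelled libraries and at 650, 732 and 624 FPKM in KO-labelled ones. The knockout allele was not given and the reason was not tested, so every direction below is that of the labels. Each direction would invert if the labels were exchanged. Of the neural stem and progenitor markers, Fabp7 (358 to 701 FPKM), Nes, Pax6 and Msi1 were present in all 6 libraries. Prom1 was under 1 FPKM in all, and the single-exon genes Sox2 and Sox1 were listed at 0 in 4 and in 3 of them. Sox2 was at 53.3, 0 and 28.4 FPKM in WT-labelled libraries and at 0 in each KO-labelled one. Sox1 was at 0, 21.04 and 18.3 FPKM in WT-labelled libraries and at 0.215, 0 and 0 FPKM in KO-labelled ones. Neither difference passed the test described below (adjusted p = 0.212 for Sox2 and 0.222 for Sox1, limma). Microglial, endothelial and fibroblast or pericyte markers summed to at most 3.47 FPKM per list in any library. The library WT 2 stood apart: isoforms inside introns, between genes or just past genes held 16.0% of its FPKM, against 3.75% to 5.27% in the other 5.

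Epha4 and Ephb2, which exchanged places in the order of levels between the groups, are shown first by their promoters. Each stretch is the 250 bases upstream of the start of the gene in RefSeq (GRCm38.p6), minus strand, written 5′ to 3′, with capitals for a GC box (GGGCGG) or a CCAAT box (CCAAT) on either strand. The Epha4 stretch is chr1:77515089-77515338 and the Ephb2 stretch is chr4:136836013-136836262.
Epha4: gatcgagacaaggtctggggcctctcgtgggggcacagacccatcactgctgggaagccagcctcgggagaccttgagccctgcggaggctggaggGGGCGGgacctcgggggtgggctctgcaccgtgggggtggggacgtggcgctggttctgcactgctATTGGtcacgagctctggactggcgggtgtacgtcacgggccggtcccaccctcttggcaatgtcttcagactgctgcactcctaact
Ephb2: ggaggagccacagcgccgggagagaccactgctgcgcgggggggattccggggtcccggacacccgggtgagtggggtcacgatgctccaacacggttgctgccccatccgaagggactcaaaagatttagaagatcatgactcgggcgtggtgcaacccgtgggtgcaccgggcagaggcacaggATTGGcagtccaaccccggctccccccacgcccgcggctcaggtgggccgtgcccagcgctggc
The Epha4 stretch holds 1 GC box and 1 CCAAT box, and the Ephb2 stretch holds no GC box and 1 CCAAT box, with no overlap between motifs. Among 32851 promoter stretches of the same length, 32.7% hold a GC box and 33.8% a CCAAT box. Both hold more CpG dinucleotides than the median stretch, with 14 in Epha4 and 20 in Ephb2 against a median of 6. Of all stretches, 70.6% hold fewer than Epha4 and 82.05% fewer than Ephb2. The 9 members with a stretch hold 9 to 27, so the trait is not particular to these genes. Such stretches describe where the genes start, and the data measured RNA and no promoter activity.

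Ephb3, Epha4 and Ephb2 were the 3 most abundant members in both groups, and the B-type ephrins were low by comparison. In the libraries labelled WT the order was Ephb3 (24.3 FPKM), Epha4 (13.0), Ephb2 (9.34), Ephb1 (3.45), Efnb2 (3.15), Efnb1 (2.31), Epha5 (1.99), Efnb3 (0.698), Epha7 (0.235) and Epha2 (0.226). Neighbours from Ephb1 down to Epha5 overlapped in their values, as did Epha7 and Epha2, while the others stood apart from the next. In the libraries labelled KO, Ephb2 (12.7 FPKM) stood above Epha4 (7.48), Efnb2 (4.10) stood above Epha5 (3.39) and Ephb1 (2.65), and Epha2 (0.608) above Epha7 (0.115). There, neighbours from Efnb2 down to Epha2 overlapped and the rest stood apart. Expressed as reads, levels rested on about 2149 to 3405 reads per library for Ephb3 but on only 12.6 to 85.4 for Epha2 and 16.0 to 50.7 for Epha7.

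**Figure D1:**
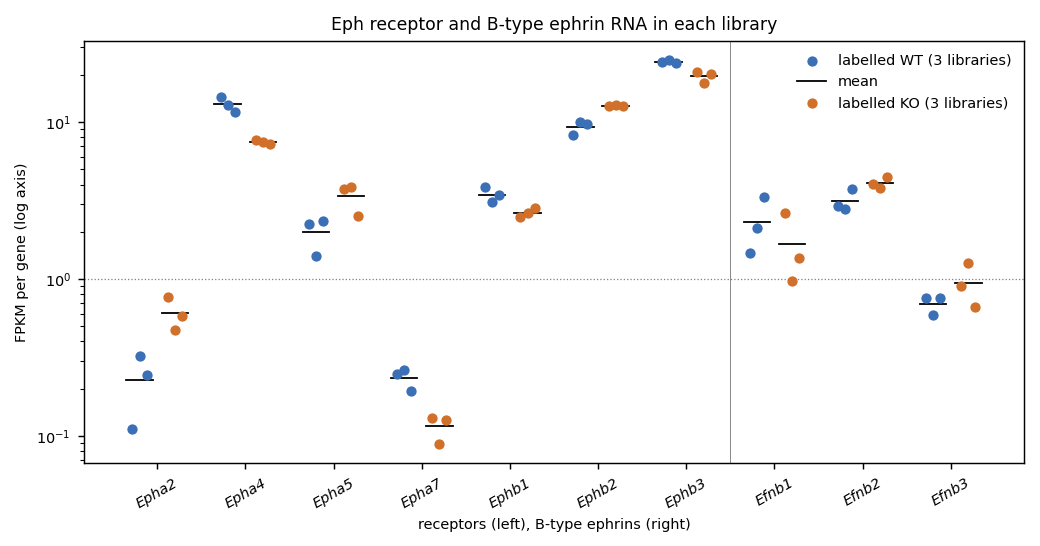
FPKM per gene (log axis) in each library for the 7 receptor genes and the 3 B-type ephrin genes, with points for the 3 libraries labelled WT (blue) and the 3 labelled KO (orange) and a black line for each mean. Epha4 lies lower and Ephb2 higher in all 3 libraries labelled KO, and Epha2, Epha7 and most values of Efnb3 lie under the dotted line at 1 FPKM.

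The comparison asked how these RNAs differed between cultures labelled KO and labelled WT. Of the 10 members, 7 had a mean of at least 1 FPKM and entered the fit of limma to log2(FPKM + 1) over 12080 genes. Of these 7, Epha4 fell, none rose and 6 did not pass a Benjamini-Hochberg adjusted p of 0.05. Of all genes tested, 6.90% were called, 3.65% higher and 3.25% lower. The median log2 fold change of the 7 was -0.28, with 3 positive and 4 negative values, against -0.02 over all genes tested. The values did not overlap between groups for 6 of the 7, 3 higher and 3 lower in KO-labelled libraries, and the same held for 33.3% of all genes tested, 16.9% higher and 16.4% lower.

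Epha4 encodes a receptor that binds ephrins of both types, and it was the one member to pass. Its values were 14.4, 13.0 and 11.7 FPKM in WT-labelled libraries and 7.74, 7.49 and 7.22 FPKM in KO-labelled ones. All 3 libraries labelled KO lay below all 3 labelled WT, with little spread among themselves. The mean fell from 13.0 ± 1.35 to 7.48 ± 0.26 FPKM (SD, n = 3), to 57.5% of its level. On the log2 scale it fell by 0.72 (SE 0.11, adjusted p = 0.0208, limma), and the exact permutation p of this gene alone, two-sided, was 0.1, the smallest that 3 against 3 allow. The call was lost without WT 1 (adjusted p = 0.0574), KO 1 (0.0752), KO 2 (0.0857) or KO 3 (0.0849, limma). It was also lost with reference transcripts only (log2 fold change -0.58, adjusted p = 0.176, limma). An assembled isoform held 26.3% of the Epha4 value in WT 2 and at most 0.198% in the other libraries.

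Epha5, a receptor for A-type ephrins best known in the developing brain, was at 2.23, 1.39 and 2.33 FPKM in WT-labelled libraries and 3.77, 3.88 and 2.52 FPKM in KO-labelled ones. The groups did not overlap, although KO 3 was close to WT 3. Its log2 fold change of 0.56 (SE 0.22, adjusted p = 0.191, limma) did not pass. With reference transcripts only it was 0.18 and the groups overlapped.

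Epha2 and Epha7 were too low for the fit. Epha2, a receptor prominent in epithelia, was at 0.111, 0.323 and 0.244 FPKM in WT-labelled libraries and 0.769, 0.477 and 0.578 FPKM in KO-labelled ones. Epha7, which also has a form without the kinase part, was at 0.249, 0.262 and 0.194 FPKM and at 0.130, 0.0884 and 0.126 FPKM. Epha2 was thus higher and Epha7 lower in each library labelled KO, at 85.4 reads or fewer. With no filter on low genes, neither passed (adjusted p = 0.198 and 0.182, limma).

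Among the EphB receptors, which cluster on binding B-type ephrins and signal to the cytoskeleton, Ephb2 was higher and Ephb1 and Ephb3 lower in every library labelled KO, but none passed. Ephb2 was at 8.33, 9.98 and 9.71 FPKM in WT-labelled libraries and at 12.7, 12.8 and 12.6 FPKM in KO-labelled ones, a mean of 9.34 ± 0.884 against 12.7 ± 0.0811 FPKM (SD, n = 3). Its log2 fold change of 0.41 (SE 0.10, 95% interval 0.16 to 0.67, adjusted p = 0.0745, limma) did not pass, but did with per-million scaling (adjusted p = 0.0496, limma). Assembled isoforms held 34.8%, 57.2% and 10.1% of the Ephb2 value in WT 1 to 3 and 0.618% to 1.62% in KO-labelled libraries. Reference transcripts alone gave 0.97 on that scale (SE 0.25, adjusted p = 0.13, limma).

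Ephb3, the most abundant member, was at 24.2, 24.9 and 23.9 FPKM in WT-labelled libraries and at 21.05, 17.8 and 20.2 FPKM in KO-labelled ones. The groups stood apart with KO 2 lowest, at a log2 difference of -0.30 (SE 0.09, 95% interval -0.53 to -0.07, adjusted p = 0.127, limma). Ephb1, another EphB receptor, was at 3.84, 3.08 and 3.43 FPKM and at 2.48, 2.64 and 2.84 FPKM, also apart, with a log2 fold change of -0.28 (95% interval -0.62 to 0.06, adjusted p = 0.274, limma). Summed, the 3 EphB receptors among the members were at 36.34, 38.0 and 37.0 FPKM and at 36.24, 33.2 and 35.7 FPKM. The highest KO-labelled sum thus lay just under the lowest WT-labelled one.

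The ratio of Ephb2 to Ephb3 was 0.345, 0.400 and 0.407 in WT-labelled libraries and 0.604, 0.720 and 0.625 in KO-labelled ones. Epha4 exceeded Ephb2 in each library labelled WT, with ratios of 1.73, 1.30 and 1.20, and was below it in each labelled KO, with 0.6085, 0.586 and 0.5715. Of the summed FPKM of the 10 members, Ephb2 held 14.25% to 17.1% in WT-labelled libraries and 22.6% to 25.0% in KO-labelled ones, and Epha4 held 19.7% to 24.6% and 13.7% to 14.65%. These ratios are descriptions and were not tested.

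The B-type ephrins, the ligands that also act as receptors, showed no call. Efnb2, known for its part in vessels and in neural stem cell niches, was at 2.93, 2.79 and 3.73 FPKM in WT-labelled libraries and 4.05, 3.79 and 4.45 FPKM in KO-labelled ones. The groups only just stood apart, between WT 3 and KO 2 (log2 fold change 0.30, 95% interval -0.06 to 0.67, adjusted p = 0.276, limma). Efnb1, an X-linked gene of cell sorting at tissue borders, was at 1.47, 2.13 and 3.34 FPKM and at 2.65, 0.975 and 1.36 FPKM, with overlap and the widest interval of the members, -1.12 to 0.47. Efnb3, a midline guidance ligand below the filter, was at 0.752, 0.590 and 0.752 FPKM and at 0.898, 1.26 and 0.662 FPKM, also overlapping. The sum of the 3 was 5.15 to 7.83 FPKM in WT-labelled libraries and 6.03 to 7.60 FPKM in KO-labelled ones. The member receptors, which leave out Ephb4, exceeded that sum 6.57 to 10.35 times and 6.40 to 7.49 times.

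**Figure D2:**
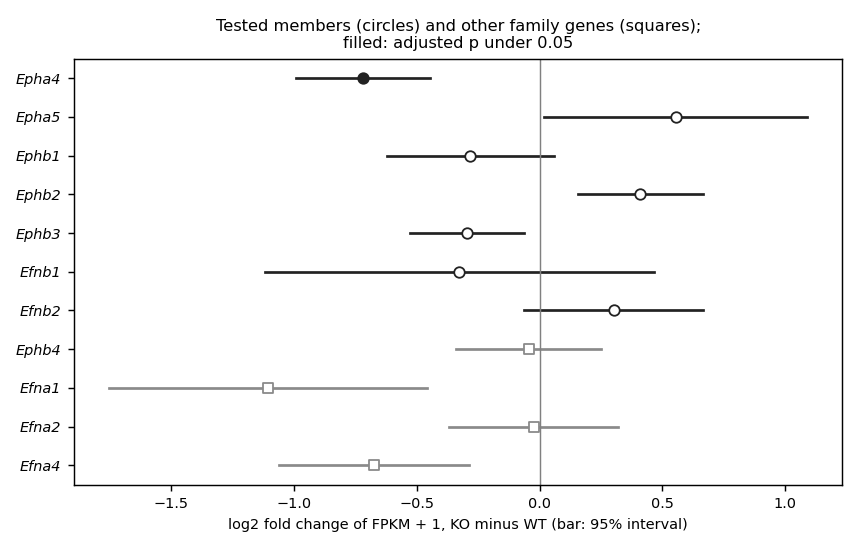
Log2 fold change of FPKM + 1 (KO minus WT, points) with its 95% interval (bars) from limma for the 7 tested members (circles) and the 4 other tested family genes (squares), filled where the adjusted p was under 0.05. Epha4 at -0.72 is the one filled point, and the intervals of Epha5, Ephb2, Ephb3, Efna1 and Efna4 also leave out 0 before adjustment.

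In bulk RNA, fewer cells of a type and less RNA per cell cannot be told apart. The 7 measured oligodendrocyte lineage markers summed to 517 to 581 FPKM in WT-labelled libraries and 338 to 391 FPKM in KO-labelled ones, with 2 of 5 tested lower (Olig1 and Pdgfra) and 1 higher (Olig2). Olig1 made up most of that sum, at 504 ± 37.7 and 326 ± 27.0 FPKM (SD, n = 3). The myelin genes Mbp and Mog were under 1 FPKM in every library. Astrocyte markers summed to 564 to 583 and 560 to 589.5 FPKM, most of it Slc1a3. Within it Gfap fell from 77.8 to 27.0 and Aqp4 from 10.9 to 2.50 FPKM, and Aldh1l1 rose from 2.77 to 68.6 FPKM, 2 of 6 tested lower and 1 higher. Neuron markers summed to 69.7 to 182 and 91.4 to 140 FPKM, most of it Map2, with none called of 3 tested (limma, 0 at an unadjusted p under 0.05). Rbfox3, Snap25 and Syt1 were under 1 FPKM in every library. The part of these cell types in the Eph and ephrin values was not tested.

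Members differed in which isoforms carried their RNA. The table listed 64 isoforms under the 10 names, of which 45 were summed, 40 of them reference transcripts and 5 assembled from reads, and the coordinates of all 40 equalled GENCODE release M21. Of the 45, 9 isoforms of 6 genes had a mean of at least 1 FPKM, and none was called by limma among 27399 isoforms, of which 0.139% were called. At an unadjusted p under 0.05, 1 of the 9 passed, against 10.2% of all isoforms tested. It was the Ephb2 isoform ENSMUST00000105845, at 2.53, 4.13 and 4.50 FPKM in WT-labelled libraries and 9.001, 9.54 and 6.88 FPKM in KO-labelled ones (adjusted p = 0.315, limma).

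Ephb2 spans bases 136647539 to 136835988 of chromosome 4 (minus strand). Its coding isoforms ENSMUST00000105845, of 986 residues, and ENSMUST00000059287, of 987, differ by 3 bases at the start of exon 7. The sequences give the last 15 bases of the exon before and the first bases of the exon (GENCODE M21), with capitals for the 3 extra bases.
ENSMUST00000105845, exon 7: cagtactatgagaaggagctcagtgag
ENSMUST00000059287, exon 7: cagtactatgagaagCAGgagctcagtgag
ENSMUST00000059287, with the extra bases at exon 7, was at 1.64, 0.142 and 4.04 FPKM in WT-labelled libraries and 3.54, 2.17 and 3.27 FPKM in KO-labelled ones. The isoforms also differ in length (10902 and 4804 bases), so their FPKM do not show which exon start was used. In WT 2, 5.71 FPKM lay in the assembled 8-exon isoform MSTRG.35525.7, which was at 0.0877 FPKM or less in the other 5 libraries. In WT 1, 2.84 FPKM lay in the assembled 16-exon isoform MSTRG.35525.2, which was at 0.00346 FPKM or less in the other 5. At 10743 bases it is close in length to ENSMUST00000105845, which leaves the split between these isoforms uncertain.

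Epha4 lies on chromosome 1, minus strand, from 77367185 to 77515088. Its most abundant isoforms were ENSMUST00000027451 (5.16 ± 0.515 against 3.47 ± 0.0687 FPKM) and ENSMUST00000188952 (5.17 ± 0.516 against 3.48 ± 0.0654 FPKM, SD, n = 3), both lower in each library labelled KO. GENCODE M21 lists ENSMUST00000027451 as protein-coding and ENSMUST00000188952 as a target of nonsense-mediated decay, each with 986 residues. These transcripts of 6328 and 6315 bases are nearly identical, which leaves their split uncertain. Each held 35.7% to 47.4% of the FPKM of Epha4 in a library, and other isoforms held the rest. For Ephb3 (chromosome 16), 1 isoform, ENSMUST00000006112, carried 22.1 ± 0.919 against 17.5 ± 1.92 FPKM (SD, n = 3). For Epha5 (chromosome 5), the assembled 7-exon isoform MSTRG.37596.8 was listed at 0, 0 and 0.747 FPKM in WT-labelled libraries and at 1.46, 1.72 and 0.724 FPKM in KO-labelled ones, up to 44.4% of the gene.

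**Figure D3:**
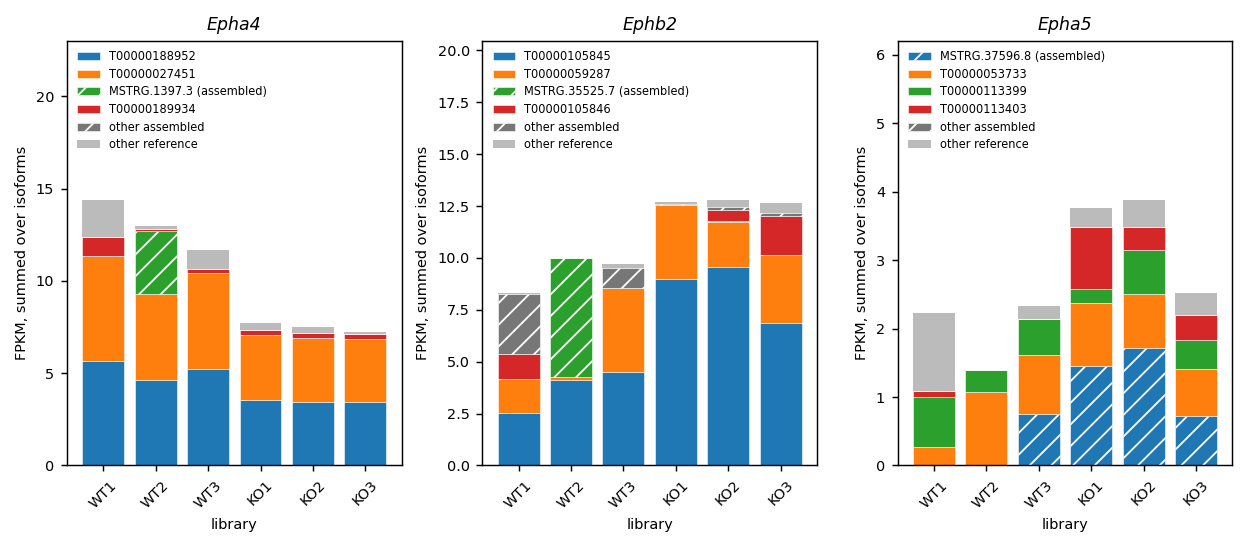
FPKM of Epha4, Ephb2 and Epha5 in each library, stacked by isoform, with the 4 isoforms of highest mean named (T stands for ENSMUST), hatching for isoforms assembled from reads and plain light grey for the other reference transcripts. Assembled isoforms make up 57.2% of Ephb2 and 26.3% of Epha4 in WT 2, and of Epha5 they make up 32.0% in WT 3 and 28.8% to 44.4% in KO-labelled libraries.

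Of the 12 other receptors and A-type ephrins of the mouse family, 11 were in the table and 4 passed the filter. None of the 4 was called by limma, and 2 (Efna1 and Efna4) had an unadjusted p under 0.05, against 24.6% of all genes tested. Ephb4, a receptor for Efnb2, was at 15.2 ± 1.45 FPKM in WT-labelled libraries and 14.7 ± 1.48 FPKM in KO-labelled ones (SD, n = 3, 95% interval of the log2 fold change -0.34 to 0.25), which places it among the abundant family genes beside Ephb3. Efna4, a lipid-anchored ligand, was at 4.50, 4.35 and 5.67 FPKM and at 2.52, 3.08 and 2.37 FPKM, apart in all libraries (log2 fold change -0.67, adjusted p = 0.0642, limma). Efna1, which passed the filter through its values in WT-labelled libraries, was at 1.17, 2.62 and 1.53 FPKM and at 0.103, 0.212 and 0.494 FPKM (log2 fold change -1.11, adjusted p = 0.0671, limma). Efna2, another lipid-anchored ligand, was at 2.51 ± 0.267 and 2.45 ± 0.131 FPKM (SD, n = 3). The 7 genes below the filter were Epha1, Epha3, Epha8, Epha10, Ephb6, Efna3 and Efna5, with group means from 0.0182 to 1.12 FPKM.

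Eph receptors pass signals through adaptors, GTPase regulators, Src-family kinases and phosphatases, and proteases such as Adam10 and gamma-secretase cut the bound complexes. Of 50 such genes, 45 were tested, of which 2 rose, 1 fell and 42 did not pass (6.67% called, against 6.90% of all genes). Their median log2 fold change was 0.0023, with 24 positive and 21 negative. Ptpro, a receptor phosphatase that removes phosphate from Eph receptors in the chick retina, rose from 12.6, 10.1 and 13.4 FPKM to 34.5, 36.2 and 32.4 FPKM (log2 fold change 1.45, SE 0.13, adjusted p = 0.00497, limma). Anks1b, a relative of the Eph-binding adaptor Anks1, fell from 21.1, 25.8 and 21.03 FPKM to 6.54, 7.65 and 6.34 FPKM (-1.59, SE 0.13, adjusted p = 0.00379, limma). Both calls held whichever library was left out, but were lost with the highest isoform only (adjusted p = 0.0643 for Ptpro and 0.175 for Anks1b, limma). With reference transcripts only and without WT 2, Ptpro was also lost (adjusted p = 0.08, limma).

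Dvl2, a Dishevelled protein of the Wnt pathway that also binds B-type ephrins in Xenopus, rose from 7.61, 9.20 and 7.94 FPKM to 14.8, 15.8 and 14.2 FPKM (0.79, SE 0.11, adjusted p = 0.0154, limma). Its call was lost without KO 1, KO 2 or KO 3 (adjusted p = 0.0593 to 0.0728, limma) and with reference transcripts only (0.0512), at log2 fold changes of 0.75 to 0.82. Taking only its highest isoform gave a log2 fold change of -0.37. By role, the 3 calls lay among 11 adaptors (Dvl2 and Anks1b) and 5 phosphatases or lipid enzymes (Ptpro). The median log2 fold change was 0.17 for 11 GTPase regulators, 0.30 for 9 kinases, -0.04 for 5 protease genes, -0.17 for the adaptors, -0.18 for the phosphatases or lipid enzymes and -0.22 for 3 GTPases. Among the protease genes, Adam10, which cleaves ephrins and Eph-bound complexes, was at 68.7, 43.8 and 67.8 FPKM and at 53.7, 34.4 and 36.2 FPKM, with overlap between groups.

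**Figure D4:**
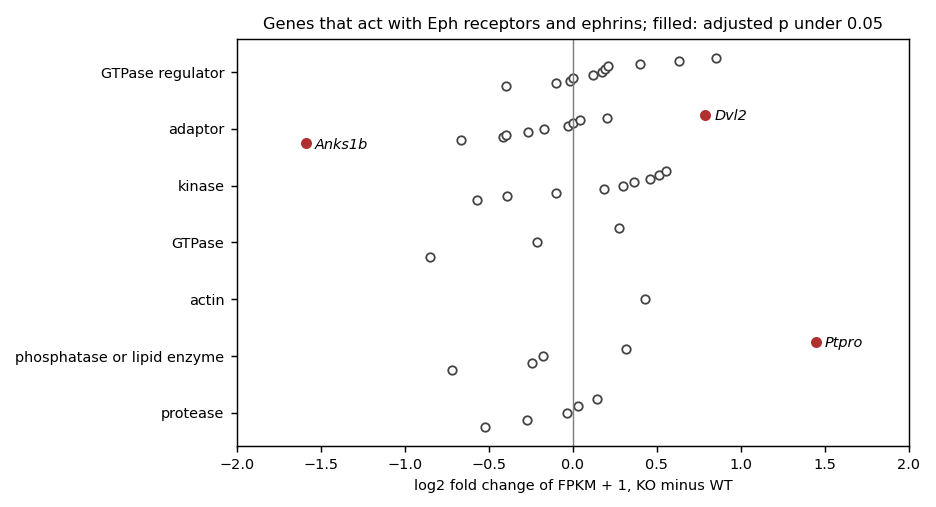
Log2 fold change of FPKM + 1 (KO minus WT) for the 45 tested genes that act with Eph receptors and ephrins, 1 point per gene, grouped by role and filled where the adjusted p was under 0.05. Ptpro and Dvl2 are filled on the right and Anks1b on the left, and the other 42 open points lie on both sides of 0.

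The genes whose levels followed Epha4 most closely over the 6 libraries, by Pearson correlation of log2(FPKM + 1), were Cic (r = 0.998), Lef1 (0.997) and Chm (0.996). All share the same libraries and the same split into groups, and a difference between the groups alone raises the correlation. Lef1, a transcription factor of the Wnt pathway, was at 2.28 ± 0.634 and 0.50 ± 0.0979 FPKM (SD, n = 3, adjusted p = 0.0358, limma). It passed the filter only through its WT-labelled values, and its call was lost with no filter (adjusted p = 0.0934, limma) and in 5 of the 6 fits that leave out a library. Cic, a transcriptional repressor, and Chm, which serves the lipid attachment of Rab proteins, did not pass (adjusted p = 0.0604 and 0.089, limma).

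**Figure D5:**
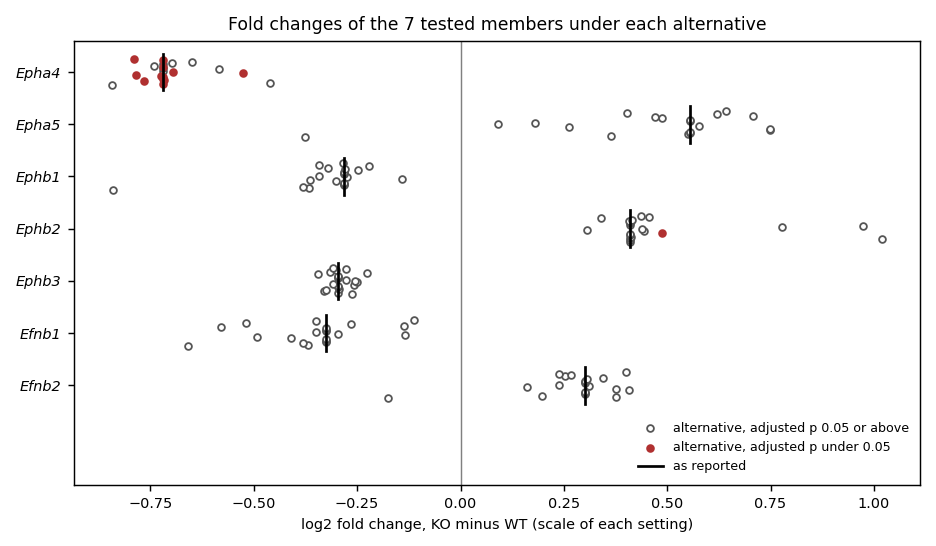
Log2 fold change (KO minus WT) of the 7 tested members under each alternative setting (points, filled where the adjusted p was under 0.05), with a black bar for the value as reported. Epha4 stays negative in all settings and is filled in part of them, Ephb2 is filled in 1, and Epha5 and Efnb2 each have 1 point on the other side of 0.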

How the data were processed

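The authors deposited FPKM and mean coverage (a signal in reads per base, not scaled to depth) for 125793 isoforms in 6 libraries, per the file headers. Cutadapt, FastQC, Bowtie2, TopHat2 and StringTie were used, per the submitters' processing notes, and their versions and the genome build are not given in the sources used here. Per the labels' protocols, ribosomal RNA was removed and libraries were strand-specific and paired-end. Columns named NT were taken as the WT-labelled libraries, by elimination and by replicate number.

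FPKM was summed per gene over reference transcripts and assembled isoforms overlapping exons of the gene (95506 isoforms). Reads were estimated from coverage. Limma 3.58.1 in R 4.3.3 was fitted to log2(FPKM + 1), with a variance trend, for genes or isoforms with a mean of at least 1 FPKM, and tested on simulated data. Tables used Python 3.11.15 with pandas 2.3.3, numpy 2.4.6 and scipy 1.17.1. Members and lists were chosen with earlier results of these data known. All members, called signalling genes and the 3 genes most like Epha4 were named by rule. Of the isoforms of at least 1 FPKM, those of Epha4 and Ephb2 and the most abundant of Ephb3 are named, and the others are not. The isoforms MSTRG.35525.2, MSTRG.35525.7 and MSTRG.37596.8 and the gene Adam10, and the cell type markers named with values, were chosen after their values were seen. Alternatives were other pseudocounts, filters, scalings, variance settings, thresholds, isoform choices, a replicate block and leaving out libraries. Alternatives added after seeing the data combined the removal of WT 2 with reference transcripts or median-ratio scaling. Some items are not reported here.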

Additional observations from a re-analysis of the deposited data

How the results depend on the processing

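The number of called genes, 833 as reported, was 219 and 1600 at thresholds of 0.01 and 0.1, 542 with every class of isoform, 235 with reference transcripts only, 192 with these and without WT 2 (added after seeing the data), 128 with the highest isoform only, and 286 to 782 when a library was left out. The 1 called member became 0 at 0.01, with every class of isoform, with reference transcripts only (with or without WT 2) and with the highest isoform only, 2 at 0.1 and with per-million scaling, and 0 to 1 when a library was left out. The 2 under each were Epha4 and Ephb2. Other family genes went from 0 to 2 at 0.1. The number of called signalling genes, 3 as reported, was 7 at 0.1, 1 with the highest isoform only (none of Ptpro, Dvl2 and Anks1b), 1 with reference transcripts without WT 2 (Anks1b), and 2 to 4 when a library was left out. Member isoforms stayed at 0 calls in all alternatives run. Deviations of same-numbered libraries from their group means correlated at 0.0119, -0.0031 and 0.065. Such values cannot show whether the numbers pair the samples, and the pairing is not known. With the replicate block, 15 genes, 0 members and 0 signalling genes were called. Over 156 values of the 7 tested members, the direction changed in 2: with every class of isoform, Epha5 was at -0.38 and Efnb2 at -0.17. Settings that change only the threshold, the filter, the variance or the replicate block repeat the reported fold change. Those values could not change direction, so the count of 2 is no measure of stability. Ephb4, near 0 as reported, was at 0.078 with the highest isoform only, 0.0018 with per-million scaling and -0.1135 to 0.036 when a library was left out, above 0 without KO 2 or WT 3 (0.016). Efna2 was at 0.017 with per-million scaling and -0.0773 to 0.0325 when a library was left out, above 0 without WT 2, also with reference transcripts (0.0325). Dvl2 was at -0.37 with the highest isoform only. The cause was not tested. Depth limits Epha2 and Epha7 most.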

Other observations

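Isoforms that lie inside introns of the members or just past their ends were left out of the gene values. There were 19, 17 of them intronic and 2 past an end. In WT 2, 15 of the 19 had a value above 0, and they summed to 49.6 FPKM, against 5 to 9 isoforms and 2.50 to 6.58 FPKM in the other 5 libraries. The 1 in Epha4 was at 5.97 FPKM in WT 2 and at 0.572 FPKM or less elsewhere.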
